A study of Mus musculus with 160 samples.

Results

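The nuclear genes of oxidative phosphorylation were followed, complex by complex, in single stromal cells of young and old mouse bone marrow. Members were taken by name: every gene of the table whose symbol starts with Nduf, Uqcr, Atp5 or Cox followed by a digit from 4 to 8, together with Sdha, Sdhb, Sdhc and Sdhd. This gave 92 of 22866 named genes, of which 45 belong by name to complex I, 4 to complex II, 8 to complex III, 18 to complex IV and 17 to complex V. The cells came from C57BL/6J mice and were sorted from marrow as negative for CD45, Ter119 and CD31 and positive for the leptin receptor and CD140a (platelet-derived growth factor receptor alpha). RNA was measured in 82 cells from young mice, 9 weeks old by the sample labels and 10 weeks by the protocol, and in 78 cells from old mice, 24 months old. The labels name no treatment, transgene or sex. They also name no animal for any cell, so each age is 1 sample, no test between the ages is possible, and every difference below describes these cells only.

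Oxidative phosphorylation is the last stage of respiration in the inner mitochondrial membrane. Complexes I and II take electrons from NADH and succinate, complex III passes them to cytochrome c, complex IV hands them to oxygen, and complex V (ATP synthase) uses the proton gradient that complexes I, III and IV build. Most subunits are encoded in the nucleus and imported, a few are encoded in mitochondrial DNA, and several complex IV subunits come in a general form and a form restricted to tissues such as muscle or testis. Marrow stromal cells that carry the leptin receptor make factors that hold blood stem cells in place, and such cells are often described as relying strongly on glycolysis.

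The promoters of 5 members described below are shown as examples. Cox8a and Cox8b encode the general and the muscle form of 1 complex IV subunit, Uqcrh and Atp5g3 had lower values in old cells, and Ndufv3 had higher ones. Each sequence is printed 5' to 3' on the gene's strand, from 250 bases before the transcription start to 50 bases from it, as RefSeq gives it for build GRCm38.p6. These coordinates are not those of mm9, the build named for the deposited values. Capitals mark matches to 4 motifs searched on both strands: GCGC followed by any base and then TGCGC, a form of the site of nuclear respiratory factor 1 (NRF1), CCGGAAG, the core bound by ETS factors such as GABPA, AAGATGGC, a site of YY1, and TATAAA, the TATA box. On the printed strand a match to the reverse complement of the ETS core reads CTTCCGG. Each motif was counted by itself, so a base could count for more than 1 of them.
Cox8a (chr19:7217567-7217866, minus strand): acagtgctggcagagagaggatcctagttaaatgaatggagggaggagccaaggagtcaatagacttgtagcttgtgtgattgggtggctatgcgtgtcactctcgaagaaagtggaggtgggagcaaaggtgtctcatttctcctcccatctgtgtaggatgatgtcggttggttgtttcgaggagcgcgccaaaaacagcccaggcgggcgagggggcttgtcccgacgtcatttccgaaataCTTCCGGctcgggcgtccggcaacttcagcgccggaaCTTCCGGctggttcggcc
Cox8b (chr7:140900397-140900696, minus strand): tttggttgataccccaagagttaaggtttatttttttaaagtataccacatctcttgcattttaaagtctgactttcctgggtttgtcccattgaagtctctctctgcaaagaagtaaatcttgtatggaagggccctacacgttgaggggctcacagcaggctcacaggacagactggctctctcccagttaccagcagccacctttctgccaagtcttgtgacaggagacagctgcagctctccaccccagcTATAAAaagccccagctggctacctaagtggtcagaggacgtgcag
Uqcrh (chr4:116075021-116075320, minus strand): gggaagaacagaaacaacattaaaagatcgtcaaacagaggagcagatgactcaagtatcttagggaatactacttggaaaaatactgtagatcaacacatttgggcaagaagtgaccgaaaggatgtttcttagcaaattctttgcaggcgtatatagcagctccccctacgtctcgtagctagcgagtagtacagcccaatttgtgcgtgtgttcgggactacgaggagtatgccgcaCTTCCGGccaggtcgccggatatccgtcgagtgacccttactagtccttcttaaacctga
Atp5g3 (chr2:73911277-73911576, minus strand): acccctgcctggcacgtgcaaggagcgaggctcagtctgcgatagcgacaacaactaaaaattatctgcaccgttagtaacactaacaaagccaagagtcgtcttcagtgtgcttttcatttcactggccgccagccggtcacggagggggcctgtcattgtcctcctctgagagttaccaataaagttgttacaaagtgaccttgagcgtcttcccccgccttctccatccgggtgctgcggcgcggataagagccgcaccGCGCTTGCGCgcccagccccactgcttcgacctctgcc
Ndufv3 (chr17:31519865-31520164, plus strand): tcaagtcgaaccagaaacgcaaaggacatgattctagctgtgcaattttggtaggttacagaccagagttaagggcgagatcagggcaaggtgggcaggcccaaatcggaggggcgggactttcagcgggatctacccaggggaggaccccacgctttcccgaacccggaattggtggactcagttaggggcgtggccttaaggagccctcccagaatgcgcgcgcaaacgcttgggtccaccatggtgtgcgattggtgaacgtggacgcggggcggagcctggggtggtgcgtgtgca
The Cox8a window holds 2 ETS cores and the Cox8b window 1 match to TATAAA. That match lies past the annotated start, at position 4 from it. The window of Uqcrh holds 1 ETS core, that of Atp5g3 holds 1 NRF1 site, and that of Ndufv3 holds none of the 4 motifs. The windows of Atp5d, Cox7a2l and Cox7c, with lower values in old cells, also hold none, and neither do those of Cox7a2 and Cox7a1, the general and the muscle form of another complex IV subunit.

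Promoters were found by symbol for 73 of the 92 members, as 78 sequences. The NRF1 site was in 20 of these (25.6%), against 6.38% of 21263 promoters of protein-coding genes and 4.60% of all 32851 promoters of the same length. The ETS core was in 17 (21.8%), against 11.6% of coding and 8.86% of all promoters, and the YY1 site was in 9 (11.5%), against 3.05% and 2.75%. TATAAA was in 8 (10.3%), against 12.6% and 13.6%. By complex, the NRF1 site was in 10 of 41 promoters of complex I, 2 of 3 of complex II, 1 of 5 of complex III, 1 of 13 of complex IV and 6 of 16 of complex V. A match is a match of letters only. The table holds no promoter for Uqcrb, Uqcrq, Cox6c and Ndufa2, among others.

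Levels are given in FPKM, in which the fragments of a gene are divided by the length of its transcript and by all mapped fragments of the cell, and the read depth behind them is unknown. A gene was counted as listed in a cell at 1 FPKM or more. A median of 1114 named genes was listed per young cell (range 129 to 2129) and 1160 per old cell (193 to 2779), and no columns were identical. At least 1 of 5 sorted stroma markers was listed in 82 of 82 young and 77 of 78 old cells. Of these, Pdgfra, which encodes the sorted CD140a, was listed in only 34.1% of young and 38.5% of old cells, and Kitl was lower in old cells (difference of mean log2 -1.38). The 5 blood markers and the 4 endothelial markers, Ptprc and Pecam1 among them, were listed in 0 cells of either age. Of 6 erythroid markers at least 1 was listed in 1 young and 1 old cell, of 4 osteoblast markers in 10 and 8 cells, and of 3 smooth muscle and pericyte markers in 2 and 0. Of the sex-linked RNA, Xist was seen in 54 old cells but 0 young ones, and at least 1 of 4 Y-linked genes in 34 young cells but 0 old ones. The protocol counts the wells of each age separately. Age, sex-linked RNA and capture cannot be told apart in any comparison below.

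No member was listed in all cells of either age. Single members were listed in 0% to 57.3% of young cells (median over the 92 members 23.8%) and in 0% to 56.4% of old cells (20.5%). Only 5 members reached 50% or more of young cells and 3 reached that share of old cells, so the median FPKM was 0 for most members. It was above 0 for 12 members in young and 10 in old cells. A total of 68 members were listed in at least 10% of the 160 cells and are called usable: 34 in complex I, 2 in complex II, 6 in complex III, 11 in complex IV and 15 in complex V. Among all named genes 3189 were usable. Of the 24 remaining members, 19 had a value above 0 in at least 1 cell and 5, all of them restricted isoforms of complex IV, were listed at 0 in all 160 cells. An FPKM of 0 can be a failed estimate, and many small subunit genes have processed pseudogene copies. How reads shared with such copies were divided is not given in the sources used here.

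Differences between the ages are differences of the mean of log2(FPKM + 1), old minus young. They understate the change of genes that most cells do not list. A size of 0.5 or more is called higher or lower. Of the 68 usable members, the mean was higher in old cells for 37 (54.4%) and in young cells for 31, against 47.5% higher in old cells among all usable genes, and the median difference was 0.06, against -0.02. By the size rule 10 members (14.7%) were called higher in old cells, against 8.22% of all usable genes, and 14 (20.6%) were called lower, against 10.3%. By this measure the members held a larger share of called genes in both directions than the table did, with no common direction. Usable members were also listed more often, in a median of 27.2% of the 160 cells against 18.1% for all usable genes, and genes listed more often were called more often. Among genes listed in at least 25% of cells, 7 of 40 members (17.5%) were called higher and 10 (25.0%) lower, against 14.8% and 18.4% of all 1049 such genes. The count of higher calls moved with the scale: it was 5, beside 14 lower, after each cell was rescaled to the same sum, and 5 beside 16 in the 69 young and 69 old cells left without those of over 3 times the median summed FPKM. The log2 ratio of mean FPKM gave 27 higher and 17 lower, against 31.9% and 32.3% of all usable genes, so by that measure the 17 lower calls made up a smaller share than in the table.

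**Figure D1:**
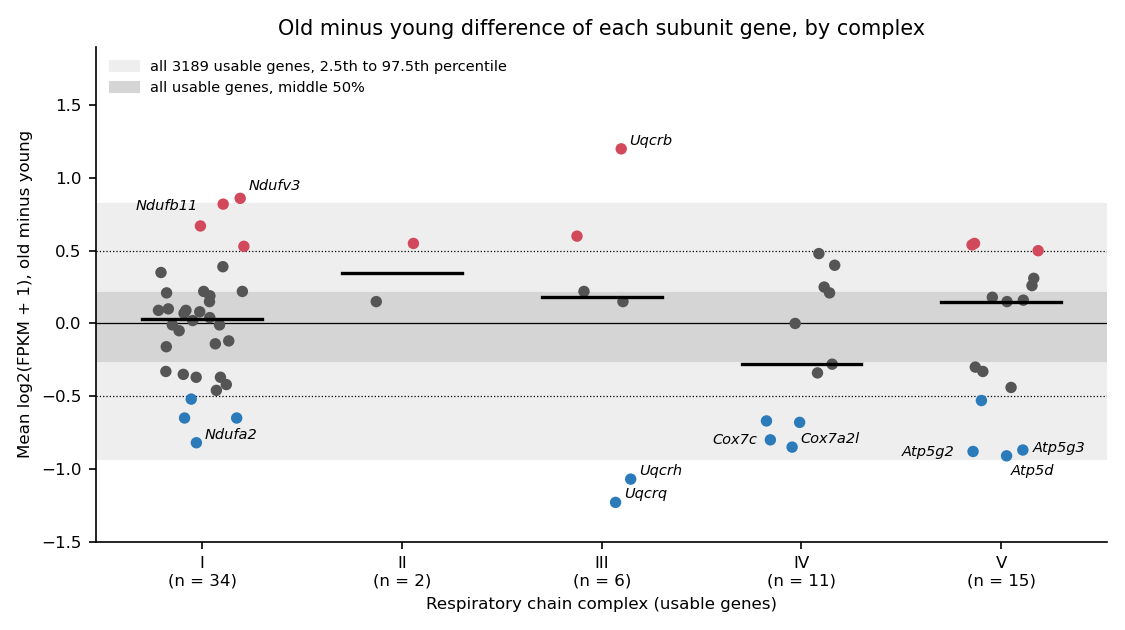
Old minus young difference of mean log2(FPKM + 1) for each of the 68 usable members, by complex (horizontal positions within a complex are arbitrary). Red and blue points are at or past 0.5 in size (dotted lines), black bars are medians of each complex, and grey bands hold the middle 50% and the middle 95% of all 3189 usable genes. Uqcrb and Ndufv3 lie above the wide band, Uqcrh and Uqcrq lie below it, and points of complexes I, III and V lie past both dotted lines.

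Complex I, the NADH dehydrogenase, showed 4 called members in each direction among 34 usable ones. A total of 18 were higher in old and 16 in young cells, the median difference was 0.03, and differences ran from -0.82 for Ndufa2 to 0.86 for Ndufv3. The shares called (11.8% in each direction) lie close to those of all usable genes. The median difference took the other sign in several settings, down to -0.13 in cells of middle gene number, so complex I as a group had no stable direction.

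The core subunits, which carry the flavin and the iron-sulfur clusters that move the electrons, were listed less often than the accessory ones. The 7 nuclear core genes had a median share of 12.2% of young and 11.5% of old cells, and the 29 accessory genes 24.4% and 23.1%. Annotated transcripts of the core genes were longer, with a median of 977 bases against 629. Of the core genes, Ndufv2 was listed most often, in 31.7% of young and 20.5% of old cells (difference -0.46). Ndufs7, which holds an iron-sulfur cluster close to the ubiquinone site, was the 1 core member called. It was listed in 15 young (18.3%) and 10 old cells (12.8%), its highest values were 451 and 163 FPKM, and its difference was -0.52. Ndufs1, Ndufs3 and Ndufs8 differed by 0.04, 0.08 and -0.16. Ndufv1, listed in 15 cells, was not usable.

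Ndufa3, an accessory subunit of the membrane arm, had the highest level of complex I over both ages together, although Ndufa4 was higher in young cells. Listing cells numbered 41 of 82 in the young (50%, exact 95% interval 38.7 to 61.3) and 42 of 78 in the old (53.8%, 42.2 to 65.2). Such intervals cover counting error over cells only. Young cells ran from 0 to 827 FPKM with a median of 2.51, and old cells from 0 to 2775 with a median of 9.51. The mean of log2(FPKM + 1) was 3.01 ± 3.34 (SD, n = 82 cells) and 3.68 ± 3.8 (n = 78 cells), a difference of 0.67. The share of cells was nearly the same, so most of the difference lay among the cells that listed it, with medians of 54.6 and 144 FPKM there. As for every usable member, cells of both ages ran from 0 upward and overlapped.

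Ndufv3, a small accessory subunit near the NADH-binding tip, had the largest difference toward old cells in complex I. Its listing cells were 19 young (23.2%, interval 14.6 to 33.8) and 23 old cells (29.5%, 19.7 to 40.9). The median was 0 in both ages and the highest value was 149 FPKM in young and 866 in old cells. The mean log2 was 0.94 ± 1.88 and 1.81 ± 2.95, a difference of 0.86. Among listing cells the median was 17.7 FPKM in young and 62.8 in old cells.

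Ndufb11, an X-linked subunit of the membrane arm, was listed in 26 young cells (31.7%, interval 21.9 to 42.9) and 34 old cells (43.6%, 32.4 to 55.3). Its median was 0 in young and 0.017 FPKM in old cells, with highest values of 464 and 589. Here the share of cells differed while the medians in listing cells were alike (63.6 and 59.1 FPKM), and the mean log2 differed by 0.82. The other X-linked members did not share this direction: Ndufa1 differed by -0.33 and Cox7b of complex IV by -0.68. Ndufb8, another membrane arm subunit, was the remaining member called higher, with 17 young and 20 old cells and a difference of 0.53.

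Among the accessory members called lower, Ndufa2, a thioredoxin-like subunit of the matrix arm, had the largest difference. It was listed in 33 young cells (40.2%, interval 29.6 to 51.7) and 20 old cells (25.6%, 16.4 to 36.8), with a median of 0 and highest values of 315 and 271 FPKM. The mean log2 was 2.24 ± 2.99 and 1.42 ± 2.57, a difference of -0.82. Its listing cells had like medians, 56.7 and 58.9 FPKM, so the difference lay in the share of cells. Ndufb9, in 27 and 18 cells, and Ndufc2, in 26 and 16 cells, both differed by -0.65, and the ratio of mean FPKM gave Ndufc2 the other sign (0.18).

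The other accessory genes had smaller differences. Ndufa7 was listed in 36.6% of young and 39.7% of old cells (difference 0.02) and Ndufa13, an accessory subunit also known as Grim19, in 47.6% and 43.6% (0.21). Ndufa5 (0.39) and Ndufs5 (0.35) had positive differences below the call. Ndufs4 (-0.42), Ndufs6 (-0.37) and Ndufb3 (-0.35) had negative ones. The remaining usable accessory genes, namely Ndufa6, Ndufa10, Ndufa11, Ndufa12, Ndufab1, Ndufb2, Ndufb4, Ndufb5, Ndufb6, Ndufb7, Ndufb10 and Ndufc1, lay between -0.14 and 0.22. Ndufab1 (0.22), listed in 7.32% of young and 12.8% of old cells, was usable only through the old ones. Ndufa8 and Ndufa9, listed in 7 and 10 cells of the 160, were not usable.

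Ndufa4 is named for complex I, although it is now regarded as a subunit of complex IV. It was listed in 42 young cells (51.2%, interval 39.9 to 62.4) and 38 old cells (48.7%, 37.2 to 60.3). Medians were 2.89 and 0.51 FPKM, highest values 756 and 1151, and the mean log2 was 3.31 ± 3.48 and 3.29 ± 3.73, a difference of -0.01. Ndufa4l2, its relative induced by low oxygen in other cells, was listed in 1 young cell at 104 FPKM and in 0 old cells. By the limit of 3 cells used here for a count of 0, that allows a share of up to 3.85% of old cells, and the exact 95% upper limit is 4.62%. The 7 assembly factors Ndufaf1 to Ndufaf7, which build complex I without staying in it, were listed in a median of 3.66% of young and 2.56% of old cells. Of these, Ndufaf7 was usable, with 12.2% and 7.69% and a difference of -0.37. It was usable only through the young cells, so a difference toward them was built into that filter.

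**Figure D2:**
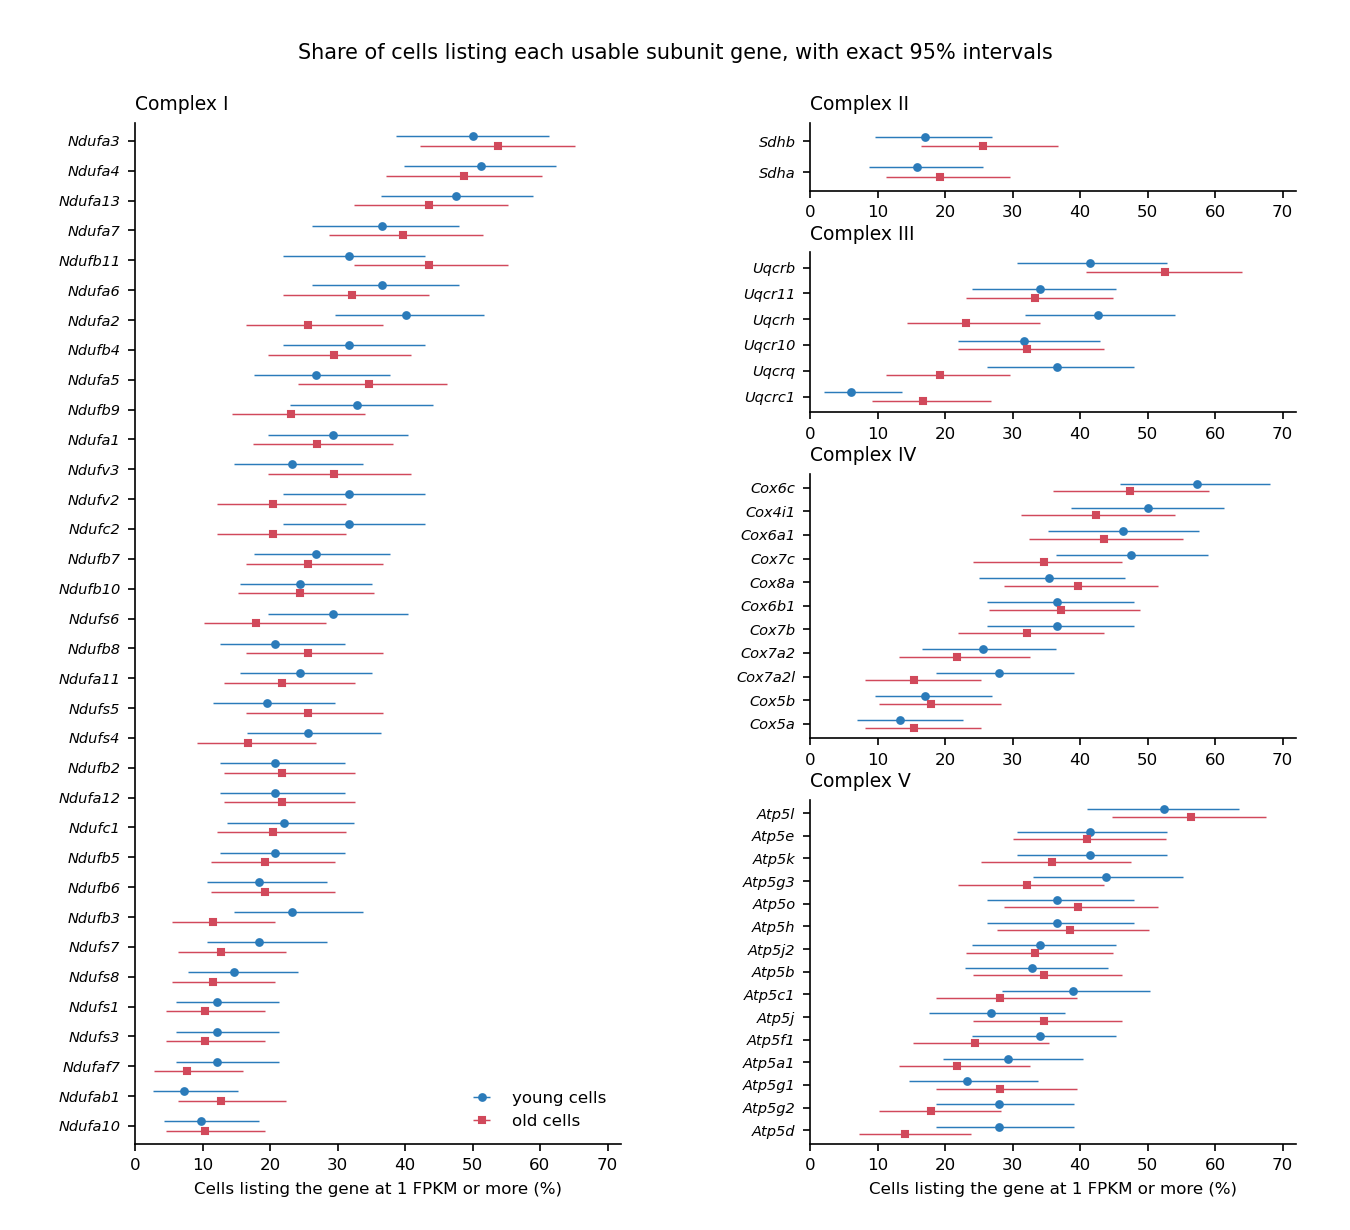
Percentage of young (blue circles, 82 cells) and old cells (red squares, 78 cells) that list each of the 68 usable members at 1 FPKM or more, by complex, with exact 95% binomial intervals over cells. Shares run from 6.10% to 57.3%, and the intervals of the ages overlap for every member.

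Complex II, succinate dehydrogenase, was listed in few cells, with the catalytic subunits ahead of the membrane anchors. Sdha, the flavoprotein that oxidises succinate, was listed in 13 young (15.9%, interval 8.72 to 25.6) and 15 old cells (19.2%, 11.2 to 29.7), with highest values of 158 and 201 FPKM. Its mean log2 was 0.61 and 0.76, a difference of 0.15. Sdhb, the iron-sulfur subunit, was listed in 14 young (17.1%, interval 9.66 to 27) and 20 old cells (25.6%, 16.4 to 36.8), with highest values of 163 and 271 FPKM. Its mean log2 was 0.84 ± 1.98 and 1.39 ± 2.51, a difference of 0.55, just past the call. Too few cells listed the anchors to make them usable: Sdhc was in 6 young and 7 old cells and Sdhd in 5 and 6, with differences of 0.02 and 0.14. All 4 genes thus had a difference above 0, as had 47.5% of all usable genes, but 2 of the 4 were not usable. For Sdhc the difference ran from -0.08 to 0.09 when each cell was left out in turn. Of the 2 usable genes 1 was called, and 8.22% of all usable genes were called higher. Any of 14 single cells ended the call of Sdhb when left out alone. In 52 young and 43 old cells none of the 4 was listed.

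Complex III, the cytochrome bc1 complex, held the largest differences of all complexes, in both directions and within its small subunits. Of 6 usable members 4 were higher and 2 lower in old cells, and 2 (33.3%) were called in each direction. Among all usable genes 8.22% were called higher and 10.3% lower, and among those listed in at least 25% of cells 14.8% and 18.4%. Of the 2 called higher, Uqcrc1 was usable only through the old cells. The differences had an SD over genes of 0.95, against 0.44 over all usable genes. All usable genes were listed less often, in a median of 18.1% of cells against 32.5%. The median difference of 0.18 changed to -0.51 in cells of middle gene number.

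Uqcrb, a small subunit near the ubiquinone-binding site, had the largest difference toward old cells among the 68 usable members, and was listed in 34 young cells (41.5%, interval 30.7 to 52.9) and 41 old cells (52.6%, 40.9 to 64.0). Young cells ran from 0 to 385 FPKM with a median of 0, and old cells from 0 to 4575 with a median of 7.86. The mean log2 was 2.38 ± 3.02 and 3.59 ± 3.70, a difference of 1.20. Among listing cells the median was 64.3 FPKM in young and 174 in old cells, so both the share and the level in listing cells were higher in old cells.

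Uqcrh, the acidic hinge protein that sits beside cytochrome c1, and Uqcrq, another small subunit of the complex, had the largest differences toward young cells. Uqcrh was listed in 35 young cells (42.7%, interval 31.8 to 54.1) and 18 old cells (23.1%, 14.3 to 34), with a median of 0 and highest values of 1352 and 401 FPKM. Its mean log2 was 2.30 ± 3.14 and 1.23 ± 2.42, a difference of -1.07. Uqcrq was listed in 30 young cells (36.6%, interval 26.2 to 48) and 15 old cells (19.2%, 11.2 to 29.7), with a median of 0 and highest values of 886 and 448 FPKM. Its mean log2 was 2.30 ± 3.28 and 1.07 ± 2.35, a difference of -1.23. For both genes the intervals of the shares overlapped by a few points. Their shares differed by -19.6 and -17.4 points, and they were the only 2 of 68 usable members at 15 points or more. Among all usable genes 4.52% were that much lower and 2.23% that much higher in old cells, and 0 members were that much higher.

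The joint listings of these genes follow in part from their shares and are given as counts. Uqcrb was listed without Uqcrh in 12 young and 28 old cells, and Uqcrh without Uqcrb in 13 young and 5 old cells. Both were listed in 22 young and 13 old cells. For Uqcrb and Uqcrq the same counts were 15 and 32 cells with Uqcrb alone, 11 and 6 with Uqcrq alone, and 19 and 9 with both. Uqcrh and Uqcrq were listed together in 16 young and 6 old cells.

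**Figure D3:**
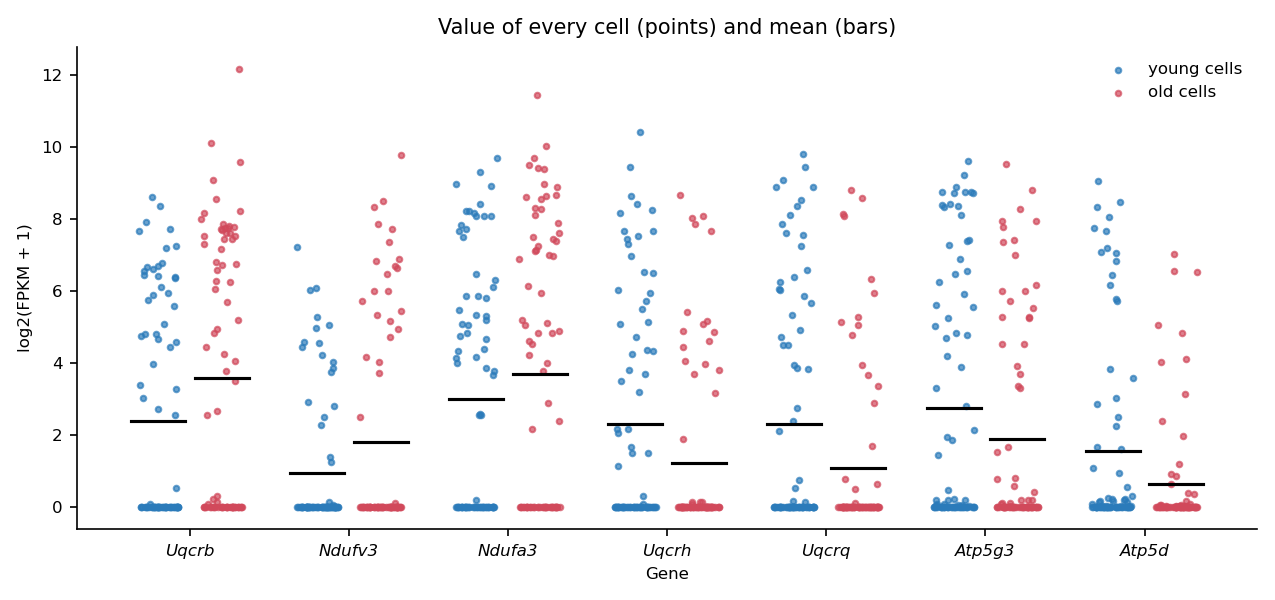
log2(FPKM + 1) of every young (blue) and old cell (red) for the 7 members past the call in the main analysis and in all 12 alternatives, with the mean as a black bar (horizontal positions are arbitrary). Some of these alternatives, such as the changes of filter, could not alter a gene's own difference. Uqcrb, Ndufv3 and Ndufa3 have the higher mean in old cells and Uqcrh, Uqcrq, Atp5g3 and Atp5d in young cells. For each gene many cells of both ages lie at 0.

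The remaining small subunits differed little. Uqcr10 was listed in 26 young (31.7%) and 25 old cells (32.1%), with highest values of 685 and 719 FPKM and a difference of 0.22. Uqcr11 was listed in 34.1% and 33.3%, with a difference of 0.15. The large subunits were listed seldom. Uqcrc1, a core protein that faces the matrix, was in 5 young (6.10%, interval 2.01 to 13.7) and 13 old cells (16.7%, 9.18 to 26.8), with highest values of 13.4 and 307 FPKM and a difference of 0.60. It was usable only through the old cells, so a difference toward them was built into that filter. Uqcrc2, the other core protein, was in 5 and 8 cells and Uqcrfs1, the Rieske iron-sulfur protein, in 7 and 6. Cyc1, the cytochrome c1 of the complex, lies outside the naming rule and was in 9 young and 5 old cells.

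Complex IV, cytochrome c oxidase, had 0 members called higher and 4 called lower in old cells among 11 usable ones, against 8.22% and 10.3% of all usable genes. In 5 of these the mean was higher in old cells and in 6 it was lower, with a median difference of -0.28. The direction of that median depended on the measure: it was 0.10 by the ratio of means, 0.28 by the trimmed ratio and 0.06 in cells of middle gene number. Usable members of this complex were listed in a median of 36.9% of the 160 cells, against 18.1% for all usable genes. Among all genes listed in at least 25% of cells, 14.8% were called higher and 18.4% lower.

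Cox6c, a small subunit of the complex, was the member listed by most young cells: 47 of 82 young cells (57.3%, interval 45.9 to 68.2) listed it, as did 37 old cells (47.4%, 36 to 59.1). Young cells had a median of 8.68 FPKM and a highest value of 481, and old cells 0.23 and 877. The mean log2 was 3.52 ± 3.37 and 2.86 ± 3.28, a difference of -0.67. Cox7c was listed in 39 young (47.6%, interval 36.4 to 58.9) and 27 old cells (34.6%, 24.2 to 46.2), with medians of 0.0857 and 0 FPKM and highest values of 813 and 966. Its mean log2 was 2.56 ± 3.06 and 1.75 ± 2.80, a difference of -0.80. Cox7a2l has been described as joining complexes III and IV into supercomplexes, which was not examined in these cells. It was listed in 23 young (28%, interval 18.7 to 39.1) and 12 old cells (15.4%, 8.21 to 25.3). Its difference was -0.85, or -0.69 without the young cell at 17226 FPKM, and it was below the call at -0.41 in cells of middle gene number. Cox7b, in 30 young and 25 old cells, differed by -0.68, but 1 young cell held 98.5% of its summed FPKM and without that cell the difference was -0.49.

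The general forms of the subunits with isoforms were all usable. Cox6a1, the general form of subunit VIa, had the highest level of complex IV over both ages together, although Cox6c was higher in young cells. Cox6a1 was listed in 38 young (46.3%, interval 35.3 to 57.7) and 34 old cells (43.6%, 32.4 to 55.3). Its medians were 0.25 and 0.0742 FPKM, its highest values 1269 and 2358, and its difference 0.25. Cox4i1, the general form of the largest nuclear subunit, was listed in 41 young (50%, interval 38.7 to 61.3) and 33 old cells (42.3%, 31.2 to 54), with a difference of -0.34. Cox8a, the general form shown above with its promoter, was listed in 29 young (35.4%) and 31 old cells (39.7%), with highest values of 272 and 1262 FPKM and a difference of 0.48. Cox6b1 was in 30 and 29 cells (0.40, or 0.18 without old cell 12), Cox7a2 in 21 and 17 (-0.28), Cox5b in 14 and 14 (0.00) and Cox5a, in 11 and 12 cells, differed by 0.21.

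The tissue-restricted isoforms were nearly absent from the listings. Cox6a2 and Cox8b, the heart and muscle forms, Cox7a1, also of muscle, Cox7b2 and Cox8c, a testis form, were listed at 0 in all 82 young and 78 old cells. By the same limit of 3 cells, a count of 0 allows a share of up to 3.66% of young and 3.85% of old cells, and the exact 95% upper limits are 4.40% and 4.62%. Cox4i2, a form known from lung, had 3 young and 5 old cells with a listing, and Cox6b2, a testis form, 3 and 3. For Cox8a and Cox8b this is 60 of 160 cells against 0. For Cox6b2, 1 young cell at 93613 FPKM held 99.7% of the summed value.

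Complex V, the ATP synthase, had the highest median share of cells of the 5 complexes, 34.1% of young and 32.1% of old cells over its 17 genes. This ranking counts the restricted isoforms in complex IV. The 10 general subunits of complex IV alone had higher medians, 36.6% of young and 35.9% of old cells. Of 15 usable members 8 were higher and 7 lower in old cells, with a median difference of 0.15, and 3 were called higher (20.0%) and 4 lower (26.7%), against 8.22% and 10.3% of all usable genes. The ratio of mean FPKM gave 5 higher members and a median of -0.49. Usable members of this complex were listed in a median of 33.8% of the 160 cells, against 18.1% for all usable genes. Among all genes listed in at least 25% of cells, 14.8% were called higher and 18.4% lower.

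In the catalytic head and its stalk, Atp5d, the delta subunit of the stalk, had the largest difference. It was listed in 23 young (28%, interval 18.7 to 39.1) and 11 old cells (14.1%, 7.26 to 23.8), with medians of 0.00691 and 0 and highest values of 532 and 129 FPKM. The mean log2 was 1.56 ± 2.76 and 0.65 ± 1.64, a difference of -0.91, and the median in listing cells was 70.1 and 16.1 FPKM. Atp5c1, the gamma subunit that turns inside the head, was in 32 and 22 cells with a difference of -0.53. The other head genes split: Atp5a1, the alpha subunit, differed by -0.33, while Atp5b, the catalytic beta subunit, differed by 0.31 and Atp5e, the epsilon subunit, by 0.18.

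Atp5g1, Atp5g2 and Atp5g3 encode the same mature subunit c, of which the rotating ring is built, with different import sequences. Atp5g3 was listed in 36 young (43.9%, interval 33 to 55.3) and 25 old cells (32.1%, 21.9 to 43.6), with medians of 0.11 and 0 and highest values of 774 and 732 FPKM. Its mean log2 was 2.76 ± 3.47 and 1.89 ± 2.93, a difference of -0.87. Atp5g2 was listed in 23 and 14 cells with a difference of -0.88, or -0.71 without the young cell at 48775 FPKM. It was below the call in cells of middle gene number (-0.39) and without cells of over 3 times the median summed FPKM (-0.38). Atp5g1 went the other way, with 19 young and 22 old cells and a difference of 0.55, but 0.36, below the call, without the old cell at 65145 FPKM. In cells of middle gene number Atp5g1 differed by -0.39. None of the 3 was listed in 24 young and 36 old cells, exactly 1 in 41 and 26, 2 in 14 and 13, and all 3 in 3 and 3.

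Atp5l, the g subunit of the membrane part, had the highest level of the complex and the highest share of old cells among all 92 members, listed in 43 young (52.4%, interval 41.1 to 63.6) and 44 old cells (56.4%, 44.7 to 67.6). Medians were 7.05 and 16.1 FPKM and highest values 24123 and 741, and the mean log2 differed by 0.26. Of its neighbours in the membrane, Atp5k, the e subunit, was in 34 and 28 cells (-0.30) and Atp5j2, the f subunit, in 28 and 26 (0.50). Among the peripheral stalk genes, Atp5o was called higher with 30 and 31 cells and a difference of 0.54. Atp5f1 differed by -0.44, Atp5h by 0.16 and Atp5j by 0.15. Atp5s and Atp5sl, related factors rather than subunits, were in 3 and 2 young cells and in 0 old cells.

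Calls near 0.5 often rested on single cells. Of the 24 called members, 16 stayed past the call without any 1 cell. The other 8 did not: Atp5g1 (lowest size 0.36, without old cell 46), Atp5j2 (0.40, old cell 59), Ndufb8 (0.42, old cell 29), Ndufs7 (-0.43, young cell 24), Atp5o (0.44, old cell 66), Atp5c1 (-0.45, young cell 26), Sdhb (0.46, old cell 71) and Cox7b (-0.49, young cell 32). For all but Cox7b, several cells ended the call when each was left out alone. Called genes outside the members were not examined in this way. Extreme single values occurred among the members, and how often they occur over all genes was not counted. In 18 of the 92 members, 8 of them usable, 1 cell held 50% or more of the FPKM summed over both ages, with the highest shares for Cox6b2 (99.7%), Cox6b1 (98.9%, old cell 12 at 822839 FPKM) and Ndufa4l2 (98.5%). The cells behind Cox6b2 and Cox6b1 listed 612 and 680 named genes and had 17.7 and 99.1 times the median summed FPKM. In 12 usable members the ratio of means and the difference of mean log2 had opposite signs.

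Counted per cell, the members were listed in step with all other genes. A median of 21 members was listed per young cell (range 1 to 46) and 20.5 per old cell (0 to 58). Pearson's r between the number of listed members and of other listed genes was 0.90 over 82 young and 0.90 over 78 old cells, a description, since both numbers share the cell's depth. As a share of listed genes, the members made up a median of 1.81% in young and 1.88% in old cells. Their summed FPKM had a median of 2218 in young and 2263 in old cells, with highest values of 143519 and 823796. No complex I gene was listed in 5 young and 4 old cells, no complex III gene in 21 and 17, no complex IV gene in 8 and 10 and no complex V gene in 3 and 7. Members of 1 complex went together about as closely as members of different ones when all pairs were pooled. The median Spearman correlation over cells was 0.17 within complexes and 0.18 across complexes in both ages, against 0.13 in young and 0.14 in old cells for pairs of a member and another usable gene. Complex I gave 561 of the 737 pairs within complexes, with a median of 0.17 in both ages. The medians were 0.24 in young and 0.26 in old cells within complex III (15 pairs), 0.20 and 0.17 within complex IV and 0.19 and 0.22 within complex V. These correlations share the depth of the cells and are descriptions.

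**Figure D4:**
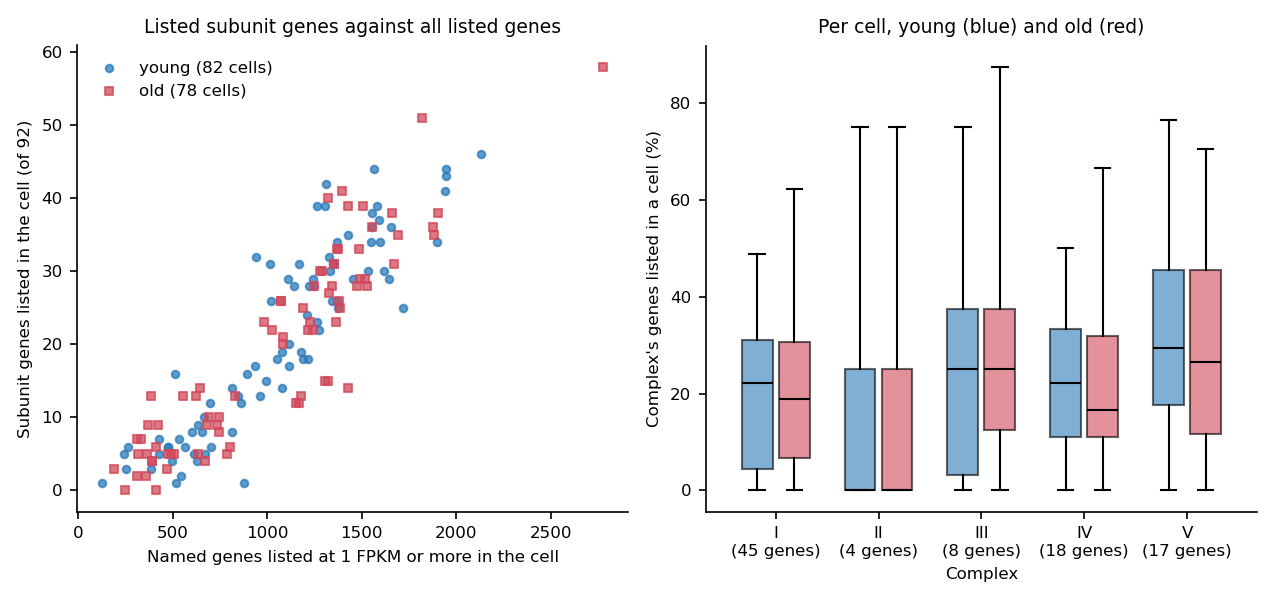
Left: number of the 92 members listed in each cell against the number of named genes listed, for 82 young (blue circles) and 78 old cells (red squares). Right: percentage of each complex's genes listed per cell, with boxes for quartiles and median and whiskers to the lowest and highest cell. Listed members climb with listed genes in both ages (r = 0.90), and the boxes of the ages overlap in every complex.

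The share of cells that listed a member went with the annotated length of its transcripts. That length is a median over all protein-coding transcripts of the gene and need not be that of the RNA present. FPKM also divides by length, so a fixed threshold asks for fewer fragments from a shorter transcript. How far this bears on the relation was not tested. Over the 91 members with a known length, Spearman's rho between the share of all 160 cells and the median length of protein-coding transcripts was -0.35, and over the 68 usable members it was -0.45, given as a description. In complex III the 5 small subunits, with a median of 474.5 bases, were listed in a median of 36.6% of young and 32.1% of old cells. The 3 large or catalytic subunits, with 1179 bases, were listed in 6.10% and 10.3%. The restricted isoforms of complex IV were an exception, with a median of 458 bases and a median share of 0%.

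**Figure D5:**
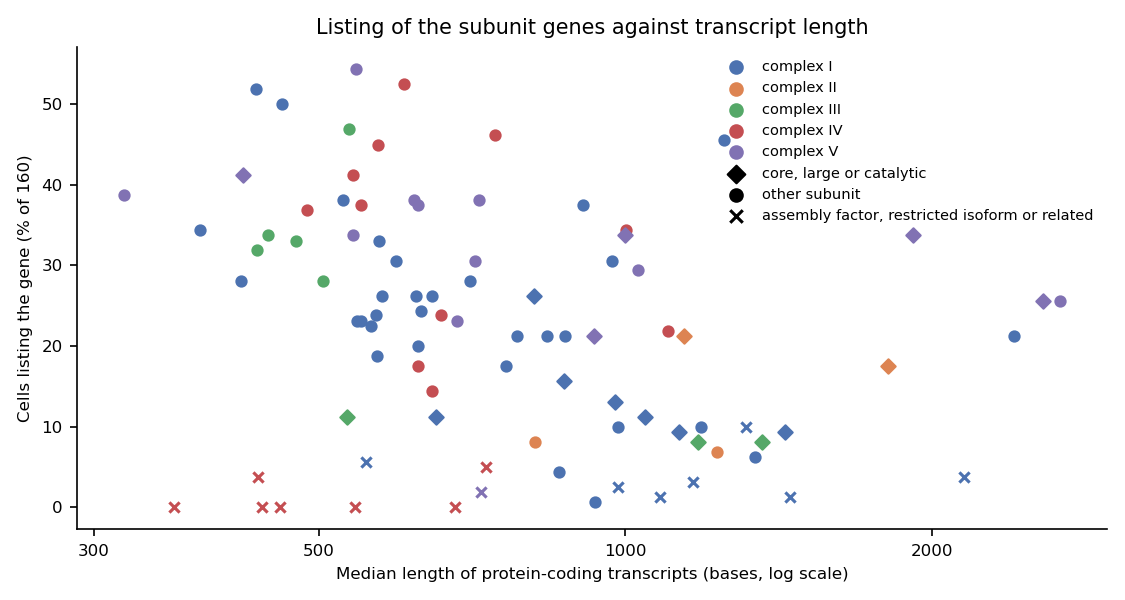
Percentage of all 160 cells that list each of 91 members against the median length of its protein-coding transcripts in bases (log axis), coloured by complex, with diamonds for core, large or catalytic subunits and the stalk of complex V, circles for other subunits and crosses for assembly factors, restricted isoforms and related factors. Genes with longer annotated transcripts tend to be listed in fewer cells (rho = -0.35), and 5 short isoforms of complex IV lie at 0%.

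Other large assemblies were set beside the members, with lists chosen after the members' values were seen. Of 76 usable cytosolic ribosomal protein genes 48 were higher in old cells, with a median difference of 0.18, and 19 were called higher (25.0%) and 6 lower (7.89%). Of 30 usable proteasome genes 13 were higher in old cells, with a median of -0.05, and 2 were called higher (6.67%) and 8 lower (26.7%). The respiratory members, with 14.7% and 20.6%, lay between the 2 lists. The SD of the differences over genes was 0.51 for the members, 0.45 for ribosomal and 0.43 for proteasome genes. Whether the lists differ was not tested.

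The wider respiratory pathway was read from lists that do not overlap the members. Among all usable genes 47.5% had a higher mean in old cells and 18.5% were called in either direction. Each list held 6 or fewer usable genes, and no list was tested against those shares. Of 7 further subunits and electron carriers 5 were usable, all with a higher mean in old cells and none called. Cytochrome c (Cycs), the mobile carrier between complexes III and IV, was in 14 young and 19 old cells (difference 0.44), and Usmg5, a small ATP synthase subunit, had the highest level, with 30 and 28 cells (0.31). Of 22 assembly factors for complexes II to V found in the table, 5 were usable, and Surf1, needed to build complex IV, was the 1 called, in 8 young and 15 old cells (0.52). It was listed in 9.76% of young cells and was usable only through the old ones. Of 6 further complex I assembly genes 0 were usable. Of 9 regulators of mitochondrial gene expression, Ppargc1a was listed in 0 cells of either age and Nrf1 in 4 young and 9 old cells. Yy1 was the 1 usable regulator (-0.11). Of 6 carriers and porins, which move ADP, ATP and phosphate, 3 were higher and 3 lower. Slc25a4 had the highest level (-0.33) and Slc25a5, an ADP and ATP carrier, was the 1 called lower (-0.67). Of 16 citric acid cycle genes 6 were usable and 0 called, as were 6 of 15 glycolysis genes with 0 called. Over the cells of both ages together, Mdh2 (-0.20) and Aldoa (0.23) had the highest levels of these lists. No row of the table carried the name of any of the 13 subunits encoded in mitochondrial DNA, so these subunits were not analysed here.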

How the data were processed

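Single cells were captured on a Fluidigm C1 chip and amplified with SMARTer chemistry, per the labels' protocols, and wells with several cells were set aside by microscopy, so no doublet caller was run. The authors deposited 1 table of FPKM per gene and cell. Cufflinks 2.1.1 and build mm9 are named in the submitters' processing notes. No source used here gives the aligner, the filters or the depth, so no count model was used. Of 31199 rows, 7751 without a gene name were left out, and rows sharing a name were summed. All 160 columns were mapped to a cell.

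From the FPKM the share of cells at 1 FPKM or more with exact (Clopper-Pearson) 95% intervals and the mean of log2(FPKM + 1) per age were computed with Python 3.11.15, pandas 2.3.3, numpy 2.4.6 and scipy 1.17.1. The differences carry no test, since each age is 1 sample. Genes listed in 10% of the 160 cells were usable, and a difference of 0.5 (log2) or 15 percentage points was called. The computation was tested on groups resampled from young cells, with known folds applied to chosen genes. Cells of over 3 times the median summed FPKM were left out of that test. It checked mainly the order and sign of the recovered differences. Only folds were applied, so changes in the share of cells with any value were not simulated.

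Members and lists were chosen with earlier results of these data known. Genes named are, per complex, the 3 usable members with the highest mean log2 and the 2 highest and 2 lowest differences; the Sdh genes, isoform pairs and subunit c genes; and from each other list its highest member and those called. Other members are named to account for the 92, of which 1 is not reported here by itself. The motifs and the ribosomal and proteasome lists were added after the values were seen. Transcript lengths are medians of GENCODE transcripts, and promoters are RefSeq's. Alternatives changed the pseudocount, the summary, the filter, the cells used and the scaling of cells.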

Additional observations from a re-analysis of the deposited data

How the results depend on the processing

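No paired analysis was possible because the numbers of the cells are names only and each age is 1 sample. Leaving out 1 replicate was likewise not possible. Of 288 values of the 24 called members under 12 alternatives, 240 stayed past the call, 45 fell under it with the same sign and 3 changed sign: Atp5c1 (0.27) and Atp5g1 (-0.39) in cells of middle gene number, and Ndufc2 (0.18) by the ratio of mean FPKM. Past the call throughout were Atp5d, Atp5g3, Ndufa3, Ndufv3, Uqcrb, Uqcrh and Uqcrq. The matching count was not made for called genes outside the members. Changes of the filter, and the limit to rows that name 1 gene, could not alter a called member's own difference. The values of those settings stayed past the call by construction.

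The 10 members called higher became 3 with a pseudocount of 10, 27 by the ratio of means, 28 by the ratio of 5% trimmed means, 16 without cells that listed under 50% of their age's median number of genes, 5 without cells of over 3 times the median summed FPKM, 5 after rescaling cells to the same sum and 6 after rescaling to the sum of genes below 5% of it. The same counts over all usable genes were 2.13%, 31.9%, 33.4%, 12.8%, 7.53%, 7.31% and 7.62%. The trimmed ratio also moved the median of all usable genes to 0.14. The 14 called lower became 22 with a pseudocount of 0.1 (22.6% of all genes) and 5 with a pseudocount of 10 (1.91%). Beside them, 12 were called higher at 0.1 (17.1% of all genes), and the trimmed ratio gave 17 lower (22.3%). The median of all members turned to -0.07 in cells of middle gene number and to -0.01 without cells of high summed FPKM.

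Members higher in old cells were 22 of 40 at the filter of 25% of cells, where complex I had 8 of 15, complex IV 3 of 7 and complex II no usable member. They were 4 of 4 in complex II with no filter, 2 of 6 in complex III in cells of middle gene number and 5 of 15 in complex V by the ratio of means. The 2 members that differed by 15 points became 6 at any FPKM above 0 (Sdhb higher; Atp5d, Cox7a2l, Cox7c, Uqcrh and Uqcrq lower), 1 at 10 FPKM or more (Uqcrq) and 4 without cells of few genes (Atp5j and Ndufa5 higher; Uqcrh and Uqcrq lower). Over all usable genes the shares higher and lower were 4.67% and 9.31% above 0 FPKM, 1.63% and 1.91% at 10 FPKM, and 5.93% and 3.83% without cells of few genes. The causes of these changes were not tested. Depth per cell is unknown, so a gene listed at 0 is not shown to be absent.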
